A study of Mus musculus with 28 samples.

Results

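This is a comparison of marrow-derived with host microglia, the GFP-negative against the GFP-positive cells sorted from the brain parenchyma of irradiation chimeras. The rule took the 8 raw count columns of GFP-negative and the 8 of GFP-positive parenchymal cells, 16 of the 28 libraries deposited, and averaged their difference over both marrow genotypes. Host mice were Cx3cr1-gfp/+, so microglia of the host carry green fluorescent protein at 1 allele of the fractalkine receptor gene, and they had been lethally irradiated. They then received marrow of hDNMT3A fl/fl donors, either without Cre (control) or with Vav-Cre (mutant), a transgene that recombines floxed alleles across the blood lineage, and both marrows carried the floxed human DNMT3A allele. Cells were taken 16 weeks after the transplant, with actinomycin D present during handling and a Percoll step to remove myelin. At most 100000 cells went into each library, and fewer where the yield was low. There were 4 libraries each of marrow-derived microglia from control and mutant chimeras and of host microglia from control and mutant chimeras. No label names the animal behind a library. The p-values therefore rest on library-to-library spread, part of which may be technical. Origin is not the only difference between the sides: host cells went through the irradiation and carry the gfp allele, the marrow cells did not, and these cannot be told apart from origin. Being GFP-negative is also not a mark of donor origin by itself, since any cell without Cx3cr1 activity lacks the signal.

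Transcripts were counted by MARS-seq, which reads the 3' ends of polyadenylated RNA and counts unique molecular identifiers (UMIs). Marrow-derived libraries held 479077 to 1013608 UMIs and host libraries 1521847 to 2903500, so the host side was deeper in every library. The deposited table had 14617 genes, of which 12327 had enough UMIs to be tested. Levels are counts per 1000000 UMIs (CPM). Differences are log2 values ± standard error (SE), marrow-derived minus host, and adjusted p is the Benjamini-Hochberg value of edgeR's quasi-likelihood test over all genes tested. In a principal component analysis of the 16 libraries the first component held 66.6% of the variance and separated the sides. Within a group, pairs of libraries differed by 1.97 to 7.42 times the sampling variance of their counts (chi-square per degree of freedom), so none looked like a library deposited more than once.

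Microglia are macrophages that enter the brain from the yolk sac in the embryo and then renew themselves in place, under a programme that needs TGF-beta signals and the transcription factor Sall1. When irradiation or another injury opens the niche, marrow cells can settle in the parenchyma, where they take a ramified shape and express some microglial genes, but are known to lack Sall1 and to keep high Apoe, Ms4a7 and Clec12a. In bulk RNA, fewer cells of a type and less RNA per cell cannot be told apart.

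The promoters of 4 marker genes and of Cdkn1a are shown because these genes mark the sides of the comparison. Each is the 250 bases before the gene's most upstream RefSeq start (GRCm38.p6), read 5' to 3' on the gene's strand. Capitals mark GGAAGT, the core that PU.1 and related ETS factors bind, on either strand, and in Cdkn1a matches to the decamer of the p53 motif, on either strand.
Ms4a7, chr19:11336147-11336396, minus strand: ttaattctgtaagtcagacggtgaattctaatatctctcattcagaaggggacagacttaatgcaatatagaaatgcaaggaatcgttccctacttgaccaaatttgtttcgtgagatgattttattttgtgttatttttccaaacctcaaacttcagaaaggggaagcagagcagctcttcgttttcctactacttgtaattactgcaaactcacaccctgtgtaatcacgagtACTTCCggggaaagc
Clec12a, chr6:129349994-129350243, plus strand: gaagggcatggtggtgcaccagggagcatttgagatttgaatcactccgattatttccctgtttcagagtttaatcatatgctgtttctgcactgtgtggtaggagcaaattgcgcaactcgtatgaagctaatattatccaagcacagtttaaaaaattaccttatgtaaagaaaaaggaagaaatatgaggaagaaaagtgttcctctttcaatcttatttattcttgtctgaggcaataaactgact
Sall1, chr8:89044163-89044412, minus strand: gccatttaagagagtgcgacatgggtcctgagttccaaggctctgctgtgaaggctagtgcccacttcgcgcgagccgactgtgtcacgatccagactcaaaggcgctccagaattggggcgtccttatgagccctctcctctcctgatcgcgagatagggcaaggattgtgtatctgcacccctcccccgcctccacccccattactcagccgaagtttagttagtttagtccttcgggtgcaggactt
P2ry12, chr3:59262986-59263235, minus strand: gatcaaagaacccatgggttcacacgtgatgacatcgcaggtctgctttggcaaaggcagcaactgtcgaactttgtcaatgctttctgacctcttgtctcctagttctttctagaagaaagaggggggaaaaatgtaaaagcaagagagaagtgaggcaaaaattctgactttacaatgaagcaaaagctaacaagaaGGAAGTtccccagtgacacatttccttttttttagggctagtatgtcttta
Cdkn1a, chr17:29090729-29090978, plus strand: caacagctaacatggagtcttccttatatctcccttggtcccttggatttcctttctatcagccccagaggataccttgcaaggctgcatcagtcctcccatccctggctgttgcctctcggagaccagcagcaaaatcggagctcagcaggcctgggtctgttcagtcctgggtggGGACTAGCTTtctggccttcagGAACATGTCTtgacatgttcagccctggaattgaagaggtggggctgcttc
GGAAGT occurred once in this window of Ms4a7, with its first base at -15 from the start, and once in P2ry12, at -51. These letters were not in the windows of Clec12a or Sall1. Of 9428 tested genes with a promoter in the table, 24.1% held GGAAGT, against 18.4% of the genes at least 2-fold higher and 24.2% of those at least 2-fold lower in marrow-derived cells. Among the 2-fold higher genes that reached 10 CPM in donor leptomeningeal libraries the share was 23.2%. Cdkn1a had 2 p53 decamers, at -73 and -51, and 5.94% of all promoters had at least 1. The promoters of the microglial homeostatic genes were poor in CpG: 5 of 19 (26.3%) had an observed to expected CpG ratio of 0.6 or more, against 67.7% of all genes. Among genes at least 2-fold higher the share was 49.1%, and among those at least 2-fold lower 60.1%. The window of P2ry12 held 3 CpG, that of Clec12a 3 and that of Sall1 13.

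All 5 genes that mark the sides separated the libraries as labelled, with no overlap between 8 and 8. Apoe, the lipid carrier, was at 74671 to 121470 CPM (median 91329) in marrow-derived and at 2649 to 5034 CPM (median 4434) in host libraries, a difference of 4.71 ± 0.11, adjusted p = 3.38e-30. Ms4a7, a tetraspan membrane protein of macrophages, was at 548 to 925 CPM (median 745) and 12.1 to 28.9 CPM (median 18.6) (5.43 ± 0.15, adjusted p = 4.39e-23), and Clec12a, an inhibitory lectin receptor of myeloid cells, at 164 to 269 CPM (median 211) and 2.41 to 11 CPM (median 7.41) (5.23 ± 0.14, adjusted p = 8.37e-32). The lowest marrow-derived library was thus above the highest host library for all 3. Sall1, a zinc finger repressor required for microglial identity, was at 8.21 to 33.4 CPM (median 14.6) in marrow-derived and 298 to 361 CPM (median 333) in host libraries (-4.14 ± 0.18, adjusted p = 1.65e-19). P2ry12, the ADP receptor of ramified microglia, was at 230.5 to 444 CPM (median 399.5) and 1908 to 4360.1 CPM (median 3846) (-3.11 ± 0.23, adjusted p = 1.09e-10). Sall1 was low but not at 0 in marrow-derived libraries, and how far RNA of host microglia is part of that level was not tested. On mm10 these genes lie at chromosome 7, 19696109 to 19699188 (Apoe), chromosome 19, 11321039 to 11336146 (Ms4a7), chromosome 6, 129342691 to 129365303 (Clec12a), chromosome 8, 89027235 to 89044162 (Sall1) and chromosome 3, 59216272 to 59262871 (P2ry12), and the reads counted come from the 3' ends of their transcripts.

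**Figure D1:**
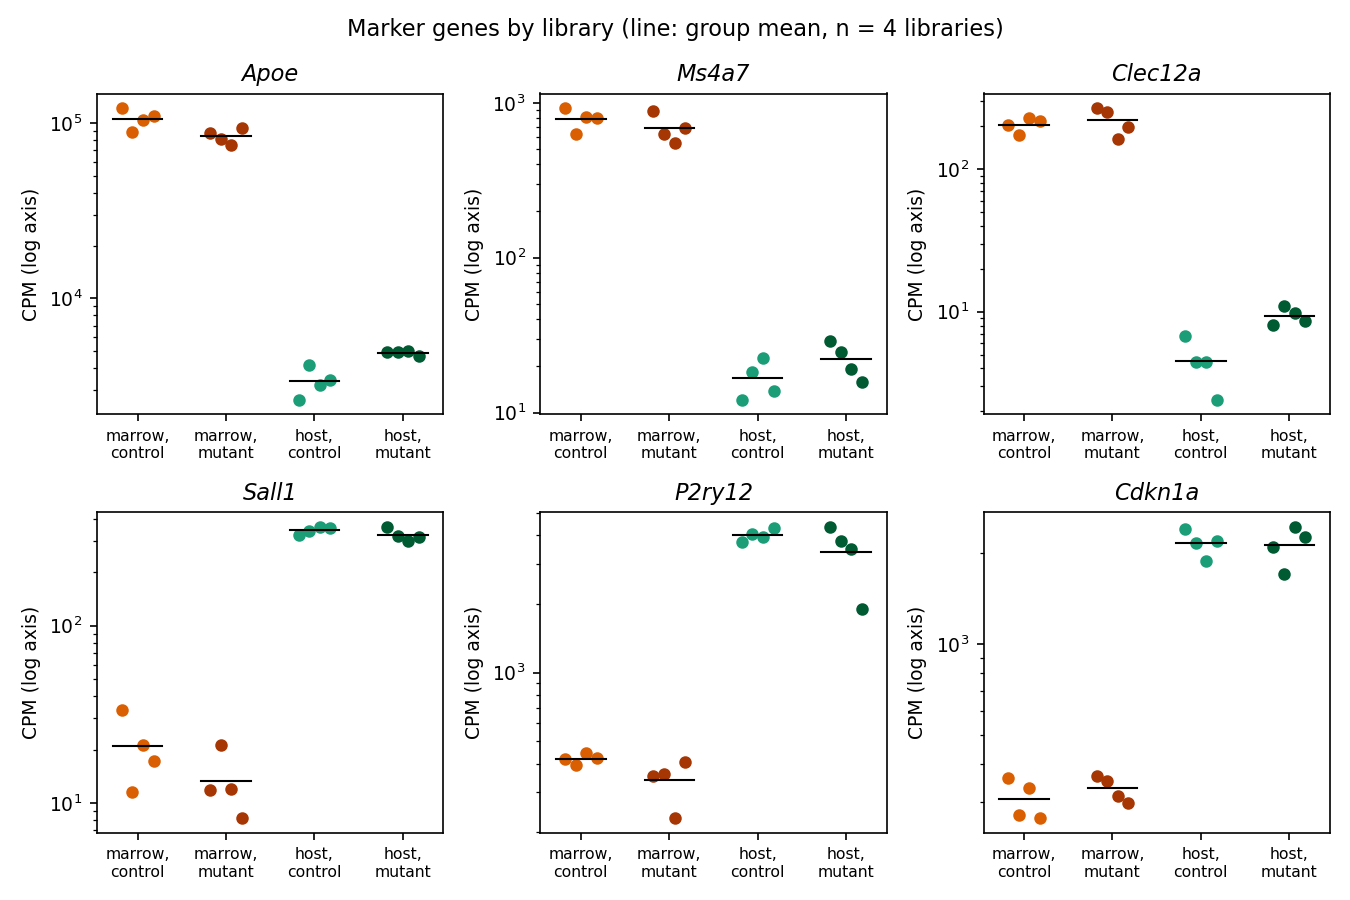
CPM of 6 genes (log axis, a separate range per panel) in each of the 16 libraries, by origin and marrow genotype; points are libraries and lines group means (n = 4). Apoe, Ms4a7 and Clec12a are higher in all 8 marrow-derived libraries and Sall1, P2ry12 and Cdkn1a in all 8 host libraries, and 1 mutant host library has P2ry12 at 1907 CPM, below the other 7.

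The difference between the sides was broad. Of the genes tested, 4083 were higher (33.1%) and 3365 lower (27.3%) in marrow-derived microglia, 60.4% in all, so a gene list needs to be read against a background in which most genes passed. At least 2-fold, 2800 genes were higher (22.7%) and 961 lower (7.8%). Ranges of 8 and 8 libraries did not overlap for 1543 higher genes (12.5%) and 1981 lower genes (16.1%). Of the genes at least 2-fold higher, more were under than over 10 CPM in donor macrophages of the leptomeninges. Among the 7717 genes of at least 10 CPM in donor leptomeningeal libraries, 2262 (29.3%) were higher and 2594 (33.6%) lower. At least 2-fold, 1149 (14.9%) of them were higher and 495 (6.41%) lower, and among the 4610 genes under 10 CPM 1651 (35.8%) and 466 (10.1%). The median difference over all genes was 0.04 with TMM scaling, 0.12 with median-of-ratios scaling and -0.14 with library totals, so differences of that size depend on the scaling.

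Genes best known from cells that are not macrophages were also higher in marrow-derived libraries. The 15 largest higher differences, among genes of at least 10 CPM whose libraries did not overlap, were led by genes best known from choroid plexus epithelium, astrocytes and neurons. Ttr, the thyroid hormone carrier made by the choroid plexus, was at 15837 to 33075 CPM (median 24348) in marrow-derived and 3.43 to 173 CPM (median 85.9) in host libraries (8.45 ± 0.92, adjusted p = 6.47e-08). Enpp2, which makes lysophosphatidic acid and is abundant in choroid plexus, was at 637 to 1627 CPM (median 1104) and 0.49 to 5.33 CPM (median 1.99), and Slc1a2, the glutamate transporter of astrocytes, at 123 to 823 CPM (median 429) and 0 to 2.63 CPM (median 0.845). Kcne2, a potassium channel subunit of the choroid plexus, was at 20.9 to 37.5 CPM (median 25.3) and had 0 UMIs in all host libraries, so that its log2 difference was at least 7.29 with host cells set to the limit of 3 UMIs over the group. The others were Mt3, Folr1, Scg3, Kcnj13, 2900040C04Rik, Wfdc2, Gng13, Ddn, Slc4a4, Igfbp2 and Kif5a, at 8.20 to 9.21 on the log2 scale.

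Summed over lists of marker genes, the list of fibroblasts, choroid plexus and ependyma took 1.61 to 3.37% of UMIs in marrow-derived libraries and 0.000441 to 0.0178% in host libraries. Col1a1 and Col3a1, collagens that define fibroblasts, were at 0 in all marrow-derived libraries, and Ttr was the most abundant member. Of all genes tested 33.1% were higher and 27.3% lower. Astrocyte genes took 0.152 to 0.74% against 0.016 to 0.0219%, with 18 of 18 higher, and neuron genes 0.0449 to 0.22% against 0.0175 to 0.0235%, with 16 of 17 higher. Oligodendrocyte genes took 0.161 to 0.545% against 0.138 to 0.156%, with 6 of 9 higher and 2 lower. Neutrophil genes took 0.112 to 1.12% against 0.0593 to 0.155%, with 13 of 18 higher and Csf3r lower. In control chimeras 16 of the 18 neutrophil genes were higher and in mutant chimeras 4, against 27% and 28.3% of all genes, and control marrow-derived libraries 3 and 4 had the largest shares (0.87 and 1.12%). T and NK cell genes took 0.0134 to 0.0208% against 0.00354 to 0.00946%, with 14 of 19 higher. Dendritic cell genes (5 of 12 higher, 2 lower), B cell genes (1 and 1 of 7), erythroid, platelet and mast cell genes (2 and 1 of 9) and vessel genes (4 and 1 of 7) moved both ways, and B cell genes were at 0.0354 to 0.0664% against 0.072 to 0.0769%. Fscn1, Gp9, Csf3r, Ighm and Pecam1 of these lists (Ighm not with thinned UMIs, adjusted p = 0.0501, or with voom, adjusted p = 0.0585) were higher on the host side, for example Fscn1, an actin bundling protein that microglia also express, at 39.9 to 81.5 CPM (median 50.3) and 663 to 873 CPM (median 822). RNA encoded by mitochondria took 1.38 to 3.79% of UMIs in marrow-derived and 0.101 to 0.305% in host libraries. In donor-derived macrophages of the leptomeninges, sorted by the same GFP gate, the choroid plexus list took only 0.0129 to 0.0525%. How far RNA of these cells enters the other differences was not tested. As a measured guide, several gene groups below are also given over members that reached a mean of 10 CPM in donor leptomeningeal libraries. This rule was added after the values were seen, and it does not exclude genes of other cells. Of 18 astrocyte genes tested 8 met it, all 8 higher, and of 9 on the choroid plexus list 5 met it, 4 higher. Ttr met it too, at a mean of 109 CPM in control and 122 CPM in mutant donor leptomeningeal libraries. All 18 neutrophil genes tested met the rule, 13 of them higher. Their list took 3.71 to 9.99% of UMIs in donor leptomeningeal libraries.

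**Figure D2:**
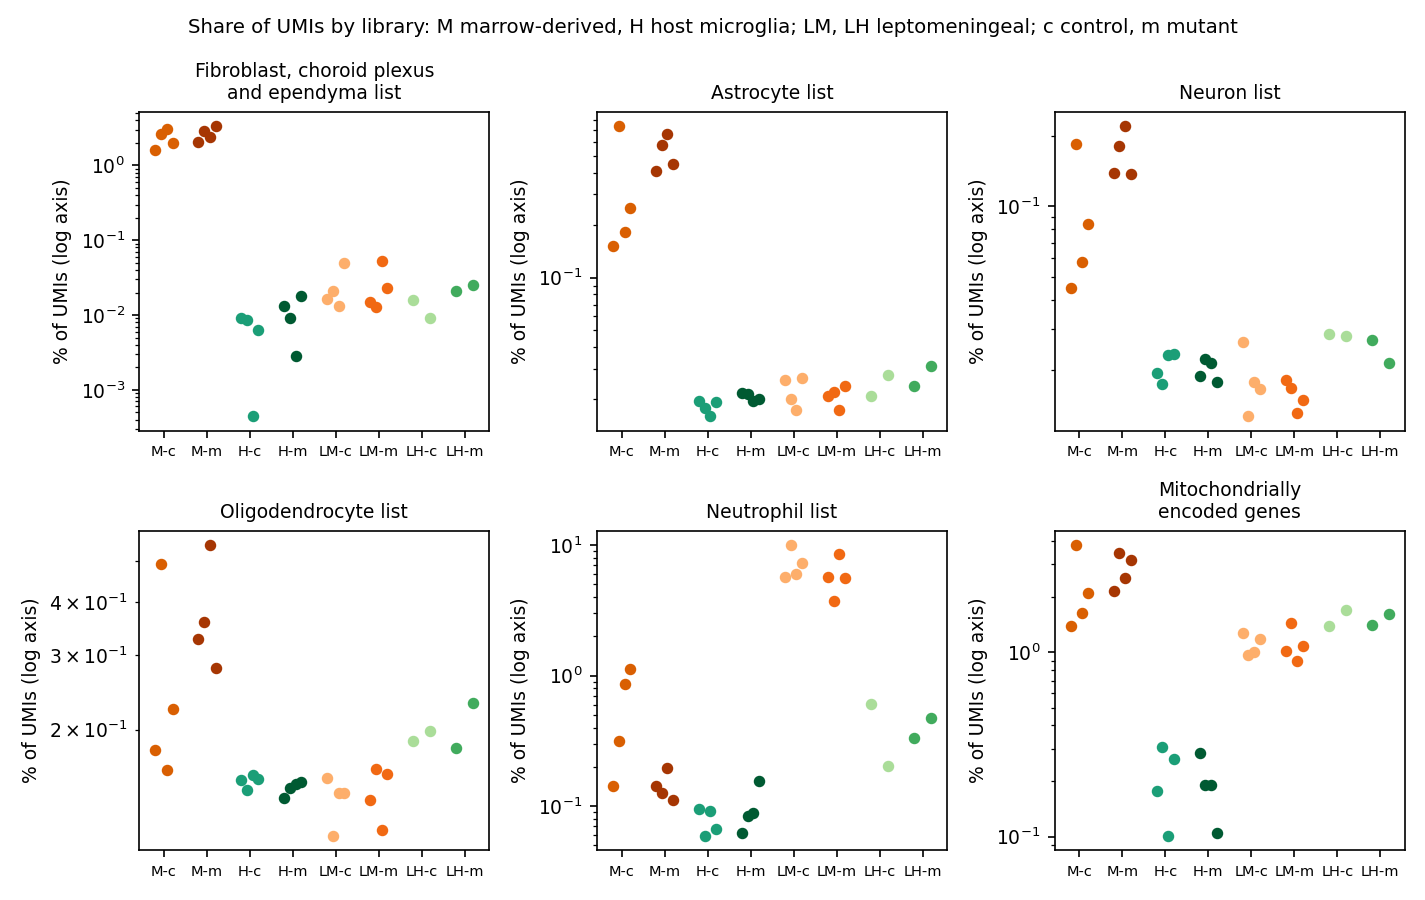
Share of a library's UMIs (log axis, in %) taken by 5 lists of other cells' marker genes and by mitochondrially encoded genes, with 1 point per library. Marrow-derived microglia (M, 4 control and 4 mutant) are the only group above 1% for the choroid plexus list, and donor leptomeningeal libraries (LM) are the highest for neutrophil genes.

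Both marrow genotypes gave the comparison once each, in libraries that they do not share. Marrow-derived against host cells had 3332 genes higher (27%) and 2333 lower (18.9%) in control chimeras, 46% in all, and 3491 (28.3%) and 2776 (22.5%) in mutant chimeras, 50.8% in all. In both, 2820 genes were higher and 1933 lower, and 2 went opposite ways. Of the genes at least 2-fold higher, 2206 were shared, 85.5% of the control and 82.3% of the mutant list, and of those at least 2-fold lower 671, 74.2% and 65.1%. Over the 12327 genes the log2 differences had a Pearson correlation of 0.912, across genes that are not independent replicates. The difference between the genotypes passed for 4 genes (0.0324%), while 747 had an unadjusted p under 0.05. This count was not stable: 70 genes were higher and 5 lower in mutant chimeras without control marrow-derived library 2, and DESeq2 called 4 and 10. Spint1, an inhibitor of membrane serine proteases, was lower on the marrow-derived side in both, at -4.46 ± 0.23, adjusted p = 1.07e-20 in control and -1.80 ± 0.16, adjusted p = 3.7e-13 in mutant chimeras, with a difference between them of 2.66 ± 0.31, adjusted p = 6.9e-07. Gatm, the first enzyme of creatine synthesis, was higher in both, by 2.61 ± 0.13, adjusted p = 7.27e-21 and 1.64 ± 0.13, adjusted p = 2.45e-14 (-0.98 ± 0.18, adjusted p = 0.0126). Commd10, an endosomal adaptor, was at -0.62 ± 0.23, adjusted p = 0.0252 and 1.02 ± 0.17, adjusted p = 1.56e-06 (1.64 ± 0.28, adjusted p = 0.00373), opposite in sign, and Apobec3, a cytidine deaminase that restricts retroviruses, at 0.16 ± 0.12, adjusted p = 0.311 and -0.74 ± 0.12, adjusted p = 2.44e-06 (-0.89 ± 0.17, adjusted p = 0.0191). Spint1 and Commd10 passed whichever single microglia library was left out. Gatm and Apobec3 did not: without control marrow-derived library 1 their adjusted p was 0.0707 and 0.187. With UMIs thinned to the smallest library total, Spint1 passed and Commd10 did not (adjusted p = 0.334).

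**Figure D3:**
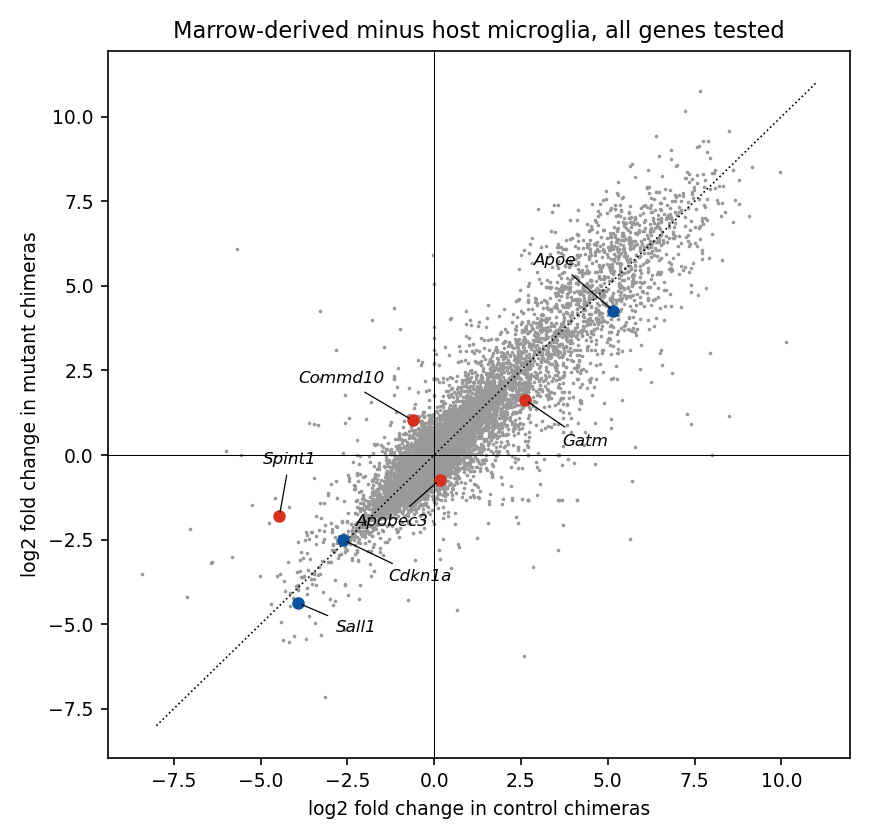
Log2 difference between marrow-derived and host microglia in mutant against control chimeras for the 12327 genes tested; each point is a gene and the dotted line marks equal values. Most genes lie along the line (Pearson correlation 0.912), and red points are the 4 genes whose difference between genotypes passed.

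Microglial homeostatic genes were all lower. Of 29 tested, 29 fell and 22 fell at least 2-fold, with a median of -1.56, against 27.3% lower of all genes. For 27 of them the 8 and 8 libraries did not overlap, against 16.1% of all genes that were lower without overlap. Selplg, the selectin ligand PSGL-1, was at 712 to 1209 CPM (median 941) in marrow-derived and 8323 to 9906 CPM (median 8686) in host libraries (-3.06 ± 0.093, adjusted p = 4.91e-30). Adgrg1, an adhesion G protein-coupled receptor, was at 69.8 to 91.9 CPM (median 79.8) and 949 to 1130.5 CPM (median 1048) (-3.50 ± 0.13, adjusted p = 4.93e-21). Tmem119, a membrane protein used to mark microglia, was at 699.8 to 1169 CPM (median 934) and 4027 to 4768 CPM (median 4225) (-2.05 ± 0.15, adjusted p = 2.86e-11). These genes fell by amounts that left clear levels in the marrow-derived libraries. How far RNA of host microglia is part of these levels was not tested. Csf1r, the receptor for CSF1 on which all these cells depend, was at 3369.8 to 5471 CPM (median 4298) and 7814 to 10583 CPM (median 9457) (-0.97 ± 0.092, adjusted p = 1.08e-12). Cx3cr1, of which the host has 1 allele replaced by gfp, was the smallest of them: 591 to 1038 CPM (median 861) against 488 to 1544 CPM (median 1307), with overlapping ranges (-0.37 ± 0.14, adjusted p = 0.0262). Its call was lost with median-of-ratios scaling (adjusted p = 0.069), with thinned UMIs (adjusted p = 0.0766), with the 16 libraries fitted alone (adjusted p = 0.167) and without mutant host library 3 (adjusted p = 0.0623). Upk1b, a uroplakin, was nearly off, at 0 to 17.3 CPM (median 6.08) against 207 to 290.3 CPM (median 257) (-4.85 ± 0.21, adjusted p = 7.36e-19), and P2ry13, Golm1 and Entpd1 fell by 2.72, 2.40 and 1.56. All 24 members of at least 10 CPM in donor leptomeningeal libraries fell as well, against 33.6% of all genes at that level. Homeostatic genes took 3.72 to 4.68% of UMIs in marrow-derived and 11.1 to 13.8% in host libraries.

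Transcription factors of microglia and macrophages moved both ways, 11 of 26 higher and 12 lower, against 33.1% and 27.3% of all genes. The paralogs Sall1 and Sall3 were the lowest: Sall3 was at 1.99 to 20.9 CPM (median 6.16) against 111 to 159 CPM (median 135) (-4.17 ± 0.21, adjusted p = 1.44e-21). Smad3, which carries TGF-beta signals into the nucleus, was at 14.8 to 36.4 CPM (median 19.7) and 92.5 to 125 CPM (median 107) (-2.11 ± 0.14, adjusted p = 2.49e-17), while Spi1, the gene of PU.1, fell by only 0.60 (420.3 to 601 CPM (median 551) against 834 to 951 CPM (median 865)). Id2, an inhibitor of basic helix-loop-helix factors, was higher (154 to 349 CPM (median 247) against 96.5 to 129 CPM (median 119.7), 1.18 ± 0.088, adjusted p = 6.05e-16). TGF-beta signalling genes were lower in 14 of 24 and higher in 6, with a median of -0.66. Of the 15 at 10 CPM or more in donor leptomeningeal libraries, 11 fell and 2 rose, against 33.6% and 29.3% of all genes at that level. Eng, a TGF-beta co-receptor, fell from 244 to 335 CPM (median 279.9) in host to 31.2 to 64 CPM (median 42.2) in marrow-derived libraries (-2.48 ± 0.11, adjusted p = 3.35e-23), and Acvrl1, a receptor kinase that Eng assists, rose from 43.1 to 56.2 CPM (median 52.9) to 91 to 161 CPM (median 125) (1.48 ± 0.11, adjusted p = 3.62e-16). Ltbp3, which stores latent TGF-beta in the matrix, rose by 2.42. With UMIs thinned to the smallest library total, 3 of the TGF-beta genes were higher.

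Genes known as markers of marrow-derived brain macrophages were all higher, 22 of 22 against 33.1% of all genes, with a median of 2.85. They are not independent support, since such genes were named from cells like these. Lyz2, lysozyme of myeloid cells, was at 5448 to 7983 CPM (median 6361) in marrow-derived and 493 to 711 CPM (median 601) in host libraries (3.61 ± 0.087, adjusted p = 9.45e-34). Axl, a receptor for phosphatidylserine bridged by Gas6, was at 459.8 to 582 CPM (median 531) and 42.7 to 85.1 CPM (median 61.8) (3.31 ± 0.10, adjusted p = 9.13e-30). Ccr2, the chemokine receptor of classical monocytes, was at 29.6 to 119 CPM (median 69.5) and 6.79 to 14.5 CPM (median 8.86) (3.12 ± 0.26, adjusted p = 6.86e-10). Klra2, a Ly49 receptor named after its values were seen, was at 57.6 to 81.4 CPM (median 64.9) and 0 to 3 CPM (median 1.58) (5.79 ± 0.20, adjusted p = 6.8e-28). All 22 reached 10 CPM in donor leptomeningeal libraries. The Ms4a family, 4-pass membrane proteins that associate with immune receptors, was higher in 9 of 10 tested genes, with a median of 2.70. Ms4a14 was at 40.4 to 106 CPM (median 45.5) against 0 to 2.5 CPM (median 1.67) (5.19 ± 0.25, adjusted p = 1.81e-21), Ms4a6c at 207 to 312 CPM (median 278) against 30 to 45.3 CPM (median 39) (2.93 ± 0.10, adjusted p = 1.39e-27) and Ms4a4c at 11.7 to 45.9 CPM (median 33.8) against 1.22 to 5.26 CPM (median 2.91) (3.49 ± 0.26, adjusted p = 1.65e-14). The family is a cluster of similar genes, and the sources used here do not give how the authors assigned reads that fit several of them.

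Genes of border macrophages, the cells of the meninges and perivascular spaces, were higher in 18 of 23 and lower in 2, with a median of 2.32. Among all genes 33.1% were higher and 27.3% lower. Mrc1, the mannose receptor, was at 173 to 277 CPM (median 215) in marrow-derived and 13.6 to 23.4 CPM (median 19.9) in host libraries (3.66 ± 0.12, adjusted p = 6.92e-29). Dab2, an endocytic adaptor, was at 192 to 257 CPM (median 216) and 18.6 to 37.5 CPM (median 28) (3.15 ± 0.13, adjusted p = 2.2e-23), and Cp, the ferroxidase ceruloplasmin, at 77.5 to 163 CPM (median 136) and 3.56 to 10 CPM (median 7.29) (4.34 ± 0.16, adjusted p = 4.35e-25). Tgfbi, a secreted matrix protein, was at 240.1 to 329 CPM (median 288) and 64.1 to 94 CPM (median 79.5) (2.03 ± 0.091, adjusted p = 1.26e-23). Mrc1 was at 348 to 565 CPM in donor and 1017 to 1630.4 CPM in host leptomeningeal libraries. Border genes as a sum took 0.259 to 0.35% of UMIs in marrow-derived microglia, 0.138 to 0.171% in host microglia and 1.69 to 2.34% in host leptomeningeal cells.

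**Figure D4:**
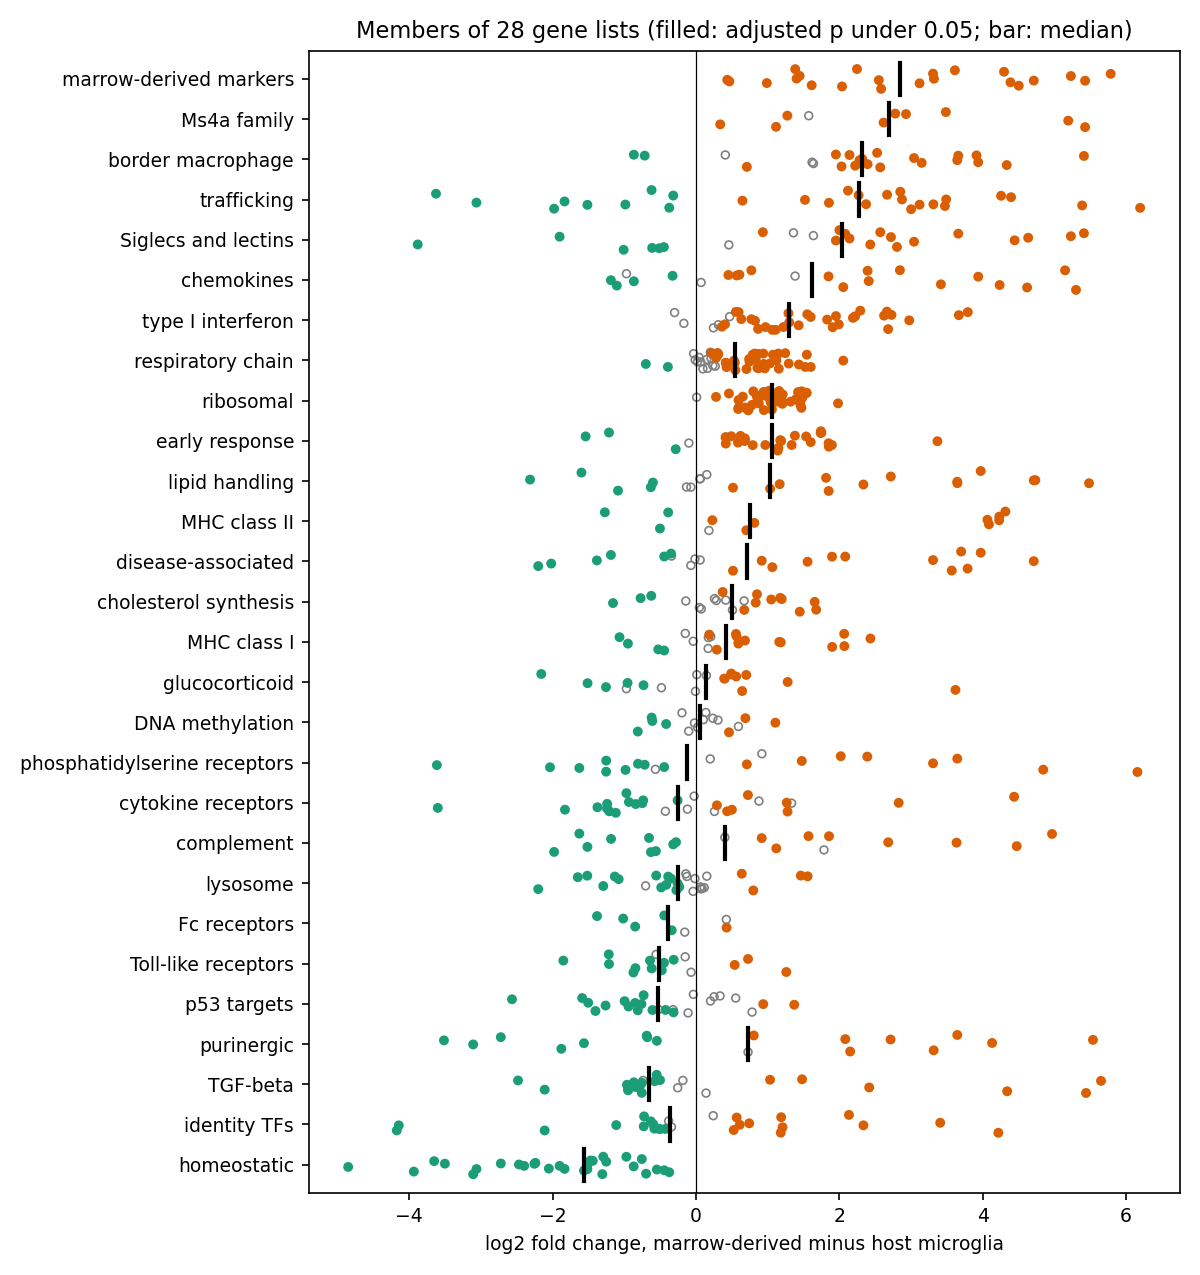
Log2 difference, marrow-derived minus host microglia, of each tested member of 28 gene lists; filled points passed (orange higher, green lower), open points did not, and bars are list medians. Homeostatic genes lie wholly below 0 and marrow-derived markers wholly above it, while lists such as lysosome, complement and purinergic genes spread to both sides.

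MHC class II genes, which present peptides to CD4 T cells, were higher in 8 of 12 and lower in 3, with a median of 0.76 that hides a split. Cd74, the invariant chain, was at 4674 to 7468 CPM (median 6354) in marrow-derived and 239 to 726 CPM (median 335) in host libraries (4.23 ± 0.14, adjusted p = 2.48e-21), H2-Ab1 at 4868 to 6689 CPM (median 5708) and 216 to 746 CPM (median 344) (4.07 ± 0.13, adjusted p = 2.66e-21), and H2-Eb1 at 3312 to 5639 CPM (median 4808) and 135 to 483 CPM (median 224) (4.32 ± 0.15, adjusted p = 1.82e-18). Ciita, the coactivator that switches these genes on, was at 36.4 to 85.4 CPM (median 54.2) and 0.979 to 7.33 CPM (median 3.47) (4.23 ± 0.21, adjusted p = 1.65e-19). The members that were lower were H2-Oa and H2-Ob, whose product holds back the peptide exchanger H2-DM, by 1.27 and 0.50, and the protease Ctss by 0.39. Class I genes were higher in 13 of 22 and lower in 4, with a median of 0.42, against 33.1% higher and 27.3% lower of all genes. H2-D1 and H2-K1, the classical heavy chains, rose by 1.18 and 1.16, and H2-Q7, a nonclassical one with close paralogs, was at 46.2 to 83.9 CPM (median 60.6) against 6.85 to 22.9 CPM (median 13) (2.43 ± 0.15, adjusted p = 1.31e-18). Genes of the type I interferon response were higher in 31 of 36, with a median of 1.30, and the other 5 did not pass; with library totals 24 were higher and 2 lower. At least 2-fold higher were 22. Ifi207, a member of the interferon-inducible p200 family, was at 41.9 to 85.8 CPM (median 57.9) against 3.05 to 7.23 CPM (median 4.12) (3.79 ± 0.18, adjusted p = 7.53e-23), Bst2, the tethering factor tetherin, at 1894 to 2871 CPM (median 2372) against 381 to 481 CPM (median 411) (2.66 ± 0.14, adjusted p = 2.1e-15), and Slfn5 at 15.9 to 47.2 CPM (median 24.8) against 1.22 to 6.67 CPM (median 3.91) (2.98 ± 0.25, adjusted p = 4.29e-14). Of the 33 interferon genes at 10 CPM or more in donor leptomeningeal libraries, 29 were higher, against 29.3% of all genes at that level. Cd74 was at 10621 to 17358 CPM in donor leptomeningeal libraries. There the choroid plexus list took at most 0.0525% of UMIs. The neutrophil list took 3.71 to 9.99% and the B cell list 0.0471 to 0.402% in the same libraries. How far RNA of other cells enters the class II differences was not tested.

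Fc receptor genes fell in 5 of 8, with a median of -0.39, against 27.3% lower and 33.1% higher of all genes. The call of the 1 that was higher was lost with thinned UMIs, library totals or voom. It was also lost without control marrow-derived library 1, 2 or 3, mutant marrow-derived library 1 or 4, control host library 3 or mutant host library 2. Fcgr3, which binds complexed IgG, was at 522 to 827 CPM (median 606) in marrow-derived and 1678 to 2040 CPM (median 1885) in host libraries (-1.38 ± 0.086, adjusted p = 1.59e-18). Toll-like receptor genes fell in 10 of 16 and rose in 3. Cd180, a Toll-like receptor homologue, was at 133 to 234 CPM (median 165) and 618 to 896 CPM (median 687) (-1.85 ± 0.10, adjusted p = 2.29e-21), its partner Ly86 fell by 1.21 and Tlr13 by 0.87, while Tlr2, which senses lipoproteins, rose from 86.8 to 108 CPM (median 97) to 155 to 246 CPM (median 210) (1.26 ± 0.088, adjusted p = 5.12e-17). Complement genes split, 8 of 19 higher and 9 lower, and 5 were higher with UMIs thinned to the smallest library total. The chains of complement receptor 3 both fell: Itgam was at 180.3 to 274 CPM (median 235) against 876 to 1211 CPM (median 1013) (-1.98 ± 0.086, adjusted p = 4.01e-24) and Itgb2 at 234 to 359 CPM (median 295) against 785 to 1084 CPM (median 983) (-1.51 ± 0.09, adjusted p = 2.7e-19). C5ar1, the receptor for C5a, fell by 1.63 and Cfp, properdin, rose by 1.57. Cytokine and growth factor receptors fell in 13 of 27 and rose in 8, against 27.3% and 33.1% of all genes. Il6st, the shared signalling chain gp130, fell by 1.83 and Ifngr1, a chain of the interferon gamma receptor, was at 175 to 250.5 CPM (median 204) against 479 to 793 CPM (median 540.4) (-1.24 ± 0.092, adjusted p = 4.06e-16). Csf2ra, a chain of the GM-CSF receptor, rose from 143 to 211 CPM (median 193) to 300 to 519.8 CPM (median 383) (1.27 ± 0.093, adjusted p = 3.81e-16).

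Lysosomal genes were lower in 14 of 28 and higher in 4, with a median of -0.24, against 27.3% lower and 33.1% higher of all genes. The proteases split by gene: Ctsl was at 168 to 240.1 CPM (median 205) against 863 to 1219 CPM (median 1058) (-2.20 ± 0.10, adjusted p = 6.55e-24) and Ctsf fell by 1.65, whereas Ctsc, which activates granule proteases, rose from 169.8 to 309.6 CPM (median 261) to 476 to 709 CPM (median 670) (1.46 ± 0.10, adjusted p = 7.01e-18). The tetraspanin Cd63 rose by 1.56, and another tetraspanin, Cd9, fell from 1221 to 1722 CPM (median 1408) to 253 to 394 CPM (median 315) (-2.02 ± 0.10, adjusted p = 7.53e-23). Genes of disease-associated microglia, a state seen around amyloid, were higher in 12 of 22 and lower in 6. Apoe and Axl, described above, and Clec7a, the beta-glucan receptor (60.6 to 117 CPM (median 103) against 18.3 to 30.7 CPM (median 25.2), 2.08 ± 0.11, adjusted p = 9.11e-21), were among the higher ones, and Ctsl, Cd9 and Ccl6 among the lower ones. Phosphatidylserine receptors and their bridging molecules, which clear dead cells, split 8 higher and 9 lower of 20. The kinase Mertk fell from 482 to 729.8 CPM (median 641) to 129 to 229.6 CPM (median 178) (-1.63 ± 0.11, adjusted p = 6.97e-17) where its relative Axl rose, and the integrin Itgb3 fell from 49.8 to 67.2 CPM (median 59.4) to 1.07 to 6.56 CPM (median 5.56) (-3.61 ± 0.24, adjusted p = 6.51e-18). Cd36, a scavenger receptor for oxidised lipid, rose from 1.72 to 4.02 CPM (median 3.36) to 24.6 to 42.7 CPM (median 38.8) (3.65 ± 0.21, adjusted p = 7.44e-20).

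Lipid handling genes were higher in 13 of 23 and lower in 5. Pltp, the phospholipid transfer protein, was at 161 to 270.2 CPM (median 186) against 14.7 to 27.6 CPM (median 17.6) (3.65 ± 0.14, adjusted p = 1.53e-23), and Lpcat3, which puts polyunsaturated chains into phospholipids, went the other way, at 60.8 to 93.9 CPM (median 84) against 389 to 562 CPM (median 450.3) (-2.31 ± 0.10, adjusted p = 4.01e-24). Cholesterol synthesis genes were higher in 10 of 21 and lower in 3, against 33.1% and 27.3% of all genes. For none of the higher ones were the 8 and 8 libraries apart, while 12.5% of all genes were higher and apart. Hmgcs1, an early enzyme of the pathway, was at 34.4 to 103 CPM (median 55.9) against 23.5 to 37.4 CPM (median 28.9) with overlapping ranges (1.20 ± 0.17, adjusted p = 2.07e-07), and Scap, which escorts the pathway's transcription factor, fell by 1.16.

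Chemokine genes were higher in 15 of 22 and lower in 4, with a median of 1.62, against 33.1% higher and 27.3% lower of all genes. Pf4, the platelet factor CXCL4 that border macrophages also make, was at 229 to 432 CPM (median 335) in marrow-derived and 17.6 to 34.8 CPM (median 23.8) in host libraries (3.94 ± 0.15, adjusted p = 3.15e-20). Cxcl16, a membrane-bound chemokine, was at 300.4 to 453 CPM (median 408) and 72.3 to 96.5 CPM (median 84) (2.41 ± 0.089, adjusted p = 1.04e-26), and Ccl6 fell from 255 to 344 CPM (median 288) to 86.7 to 137 CPM (median 114) (-1.19 ± 0.10, adjusted p = 3.82e-14). Monocyte genes, chemokine receptors and adhesion molecules were higher in 18 of 27 and lower in 9, with a median of 2.27. Cxcr4, the receptor that holds cells in the marrow, was at 58.4 to 142 CPM (median 83.6) and 0.49 to 7.01 CPM (median 2.25) (5.39 ± 0.20, adjusted p = 1.04e-26), and Ccr1 at 50.7 to 119 CPM (median 95.2) and 4.27 to 12.1 CPM (median 9.67) (3.47 ± 0.14, adjusted p = 8.13e-25). Ace, the angiotensin-converting enzyme and a gene of nonclassical monocytes, was at 41.6 to 73.5 CPM (median 61.1) and 0 to 1.97 CPM (median 1.24) (6.20 ± 0.26, adjusted p = 1.38e-24), the largest of this list. Siglecs and C-type lectins were higher in 15 of 24 and lower in 6: Clec4n, the receptor dectin-2, was at 19.9 to 64.7 CPM (median 34.9) against 0 to 2.07 CPM (median 0.847) (5.41 ± 0.30, adjusted p = 4.69e-19). Of 17 purinergic genes 8 were higher and 8 lower, against 33.1% and 27.3% of all genes. With thinned UMIs or with the 16 microglia libraries alone, 4 were higher and 8 lower. The adenosine receptor Adora3 fell from 127 to 157 CPM (median 148) to 4.92 to 19.1 CPM (median 10.3) (-3.52 ± 0.17, adjusted p = 1.46e-22). Of the 10 purinergic genes at 10 CPM or more in donor leptomeningeal libraries 6 fell and 3 rose, against 33.6% and 29.3% of all genes at that level.

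p53 target genes were lower in 14 of 25 and higher in 2, with a median of -0.52, against 27.3% lower and 33.1% higher of all genes. Cdkn1a, the cell cycle inhibitor p21 and a direct target of p53 (mm10 chromosome 17, 29090976 to 29100727), was at 265 to 366 CPM (median 323) in marrow-derived and 1698 to 2440.5 CPM (median 2170.5) in host libraries (-2.57 ± 0.10, adjusted p = 3.39e-26). The difference was -2.63 ± 0.14, adjusted p = 2.76e-20 in control and -2.51 ± 0.14, adjusted p = 1.15e-19 in mutant chimeras, with 8 of 8 host libraries above every marrow-derived one in the plot of marker genes. Bax and Bbc3, which trigger mitochondrial cell death, fell by 0.94 and 1.50, and Sesn2, a stress sensor, by 1.40. The 25 genes took 0.108 to 0.125% of UMIs in marrow-derived and 0.3 to 0.382% in host libraries. A large part of the host sum was Cdkn1a alone, at the 1698 to 2440.5 CPM given above, so the sum says little of the other members. With UMIs thinned to the smallest library total 9 were lower, and over all alternatives 1 to 4 were higher. Of 19 p53 genes with a promoter in the table, 6 (31.6%) held a p53 decamer. Cell cycle genes were higher in 16 of 35 and lower in 4, against 33.1% and 27.3% of all genes. In control chimeras 16 were higher and in mutant chimeras 4, against 27% and 28.3% of all genes, a difference between lists that was not tested as such. Ube2c, a mitotic ubiquitin-conjugating enzyme, was at 7.47 to 71.1 CPM (median 18.3) against 3.56 to 11.6 CPM (median 4.91) (1.99 ± 0.36, adjusted p = 3.05e-05), with the highest value in control marrow-derived library 4, and its difference between genotypes was -2.41 ± 0.69, adjusted p = 0.509. Without control marrow-derived libraries 3 and 4, 8 cell cycle genes were higher. With all 16 microglia libraries fitted alone, or with the replicate number as a block, 10 were higher. The cause of these lower counts was not tested. Mcm3, a helicase subunit of DNA replication, fell over all libraries by 1.03.

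Cytosolic ribosomal protein genes were higher in 45 of 46, with a median of 1.06, and took 5.05 to 6.66% of UMIs in marrow-derived and 2.84 to 3.41% in host libraries. Rpl13 was at 1916 to 2405 CPM (median 2061) against 508 to 681 CPM (median 634) (1.98 ± 0.08, adjusted p = 2.88e-25). Such genes have many processed copies in the genome, so single values are uncertain. Nuclear genes of the respiratory chain were higher in 38 of 52 and lower in 2, with a median of 0.55: Cox8a, a subunit of cytochrome oxidase, was at 820.3 to 2165 CPM (median 1462) against 371 to 450.5 CPM (median 420.3) (2.05 ± 0.11, adjusted p = 3.09e-17). All 7 mitochondrially encoded genes tested were higher, with a median of 3.94, for example mt-Co1 at 1841 to 4622 CPM (median 3088) against 84.9 to 327 CPM (median 221) (4.05 ± 0.24, adjusted p = 1.86e-12). Host microglia stood apart here from the other 3 populations: mitochondrial RNA was 0.898 to 1.43% of UMIs in donor and 1.38 to 1.69% in host leptomeningeal libraries. Glycolysis genes were higher in 13 of 22 and lower in 4, against 33.1% and 27.3% of all genes. Immediate early and NF-kB response genes were higher in 25 of 30 and lower in 3, with a median of 1.05. Actinomycin D was used on both sides, and the part of handling was not tested. The list took 0.41 to 0.548% of UMIs in marrow-derived and 0.277 to 0.326% in host microglia. In donor and host leptomeningeal libraries it took 0.583 to 0.788% and 0.548 to 0.693%. Gadd45b, a stress gene, was at 59 to 111 CPM (median 92.4) against 22.5 to 33.5 CPM (median 28) (1.85 ± 0.12, adjusted p = 2.76e-18), and Nfkbia, the inhibitor IkB-alpha, at 550.3 to 714 CPM (median 639) against 259 to 376 CPM (median 306) (1.18 ± 0.077, adjusted p = 6.09e-18). Glucocorticoid-responsive and clock genes split 7 higher and 5 lower of 19, near the 33.1% and 27.3% of all genes. Sgk1, a kinase induced by glucocorticoids, was at 62.1 to 125 CPM (median 99.6) against 427 to 578 CPM (median 474) (-2.16 ± 0.11, adjusted p = 1.51e-21), and Klf9 rose from 2 to 4.89 CPM (median 3.9) to 20.9 to 62.1 CPM (median 35.4) (3.62 ± 0.23, adjusted p = 1.81e-18). Astrocyte and neuron genes took 0.152 to 0.74% and 0.0449 to 0.22% of UMIs in the same marrow-derived libraries, and their part in these groups was not tested. Of the respiratory chain genes all 52 reached 10 CPM in donor leptomeningeal libraries, where the median origin difference was 0.33.

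Of 15 Hox genes and cofactors, some of which blood-derived cells keep expressing, 5 were tested and 4 were higher. Hoxb4, a factor of blood stem cells, was at 9.6 to 21.9 CPM (median 13.9) in marrow-derived and 3.29 to 8.24 CPM (median 4.74) in host libraries (1.71 ± 0.24, adjusted p = 2.76e-08), and 1 gene of this list was higher with UMIs thinned to the smallest library total and 2 without control marrow-derived library 3. Of 16 DNA methylation genes 3 were higher and 4 lower, against 33.1% and 27.3% of all genes. Without control marrow-derived library 3, or without mutant marrow-derived library 3, 1 of them was higher. Mouse Dnmt3a was at 52.2 to 91.9 CPM (median 65.6) against 104 to 128 CPM (median 121) (-0.61 ± 0.11, adjusted p = 4.56e-06), with -0.63 ± 0.16, adjusted p = 0.000787 in control and -0.58 ± 0.15, adjusted p = 0.00115 in mutant chimeras. Reads of the human allele were not counted apart, and these counts do not check the recombination.

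The 15 largest lower differences were led by genes of low level in marrow-derived cells. Gm3739 and Gm3636 are predicted genes with close copies, so their counts are uncertain (-5.96 ± 0.48, adjusted p = 1.95e-14 and -4.55 ± 0.38, adjusted p = 2.08e-14). Mlph, melanophilin, which links vesicles to myosin, was at 0.994 to 20.9 CPM (median 6.07) in marrow-derived and 115 to 134 CPM (median 127) in host libraries (-4.20 ± 0.21, adjusted p = 2.59e-22). Tmem204, a junction protein, was at 0 to 9.84 CPM (median 2.07) and 66.4 to 81.3 CPM (median 74.7) (-4.55 ± 0.26, adjusted p = 4.03e-20), Mymk, the muscle fusion factor myomaker, at 1.44 to 8.88 CPM (median 2.56) and 75.1 to 105 CPM (median 83.2) (-4.10 ± 0.24, adjusted p = 4.51e-19) and Kcnk12, a potassium channel, at 2.05 to 16.8 CPM (median 5.73) and 111 to 158 CPM (median 138) (-4.06 ± 0.22, adjusted p = 3.25e-18). The others were Col6a3, Upk1b, Slc5a10, Liph, Sall3, Adamts16, Sall1, Hsf2bp and Atp8a2, and all 15 were lower in each genotype by edgeR's test. Outside the naming rule, the largest higher differences among genes that donor leptomeningeal cells express at 10 CPM or more and at 25% or more of their marrow-derived level were looked up after the values were seen. They included F5, coagulation factor V (25.7 to 62.3 CPM (median 35.2) against 0 to 0.89 CPM (median 0)), Lbp, the carrier of lipopolysaccharide (12.5 to 43.4 CPM (median 34.3) against 0 to 1.22 CPM (median 0)), and Rgcc (18.5 to 69.4 CPM (median 28.5) against 0 to 1.97 CPM (median 0.845)), at 7.91, 6.82 and 5.53 on the log2 scale.

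The difference between donor and host cells was not the same in the leptomeninges, where donor cells (4 libraries per genotype) were set against host cells (2 per genotype). There 2083 genes were higher (16.9%) and 1636 lower (13.3%) in donor cells, 30.2% in all, and the difference between the compartments passed for 5209 genes (42.3%). The homeostatic genes fell in both: 27 of 29 were lower in the leptomeninges, with a median of -1.35. P2ry12 was at -2.80 ± 0.26, adjusted p = 1.73e-08 there, and its difference between compartments was -0.31 ± 0.34, adjusted p = 0.514. In host leptomeningeal libraries P2ry12 averaged 986 CPM in control and 603 CPM in mutant chimeras, and Sall1 40.3 and 14.8 CPM. Donor leptomeningeal libraries averaged 86.85 and 103.9 CPM for P2ry12 and 2.29 and 2.92 CPM for Sall1. How far RNA of host microglia enters the leptomeningeal difference was not tested. For Apoe the direction turned, 4.71 ± 0.11, adjusted p = 3.38e-30 in the parenchyma and -0.46 ± 0.12, adjusted p = 0.00192 in the leptomeninges, where host cells were at 48086 to 60403 CPM (5.17 ± 0.15, adjusted p = 1.76e-26 between compartments). Ms4a7 turned as well, with -0.98 ± 0.14, adjusted p = 2.65e-06 in the leptomeninges (6.41 ± 0.21, adjusted p = 5.51e-21), while Clec12a was higher in both (1.54 ± 0.13, adjusted p = 2.95e-13 in the leptomeninges). Of 23 border genes 18 were higher in the parenchyma and 1 in the leptomeninges, where 18 were lower. Class II genes were higher in donor cells of both, 8 and 11 of 12. Interferon genes were higher in 31 of 36 in the parenchyma and in 9 in the leptomeninges, with a compartment difference that passed for 22. Of cell cycle genes 34 of 35 were higher in donor cells of the leptomeninges. Neutrophil genes took 3.71 to 9.99% of UMIs in donor and 0.204 to 0.606% in host leptomeningeal libraries, and their part in these differences was not tested. Mitochondrially encoded genes had a median of 3.94 in the parenchyma and -0.26 in the leptomeninges. Cdkn1a fell in both, with -1.13 ± 0.11, adjusted p = 1.37e-11 in the leptomeninges and -1.44 ± 0.15, adjusted p = 8.16e-11 between compartments.

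**Figure D5:**
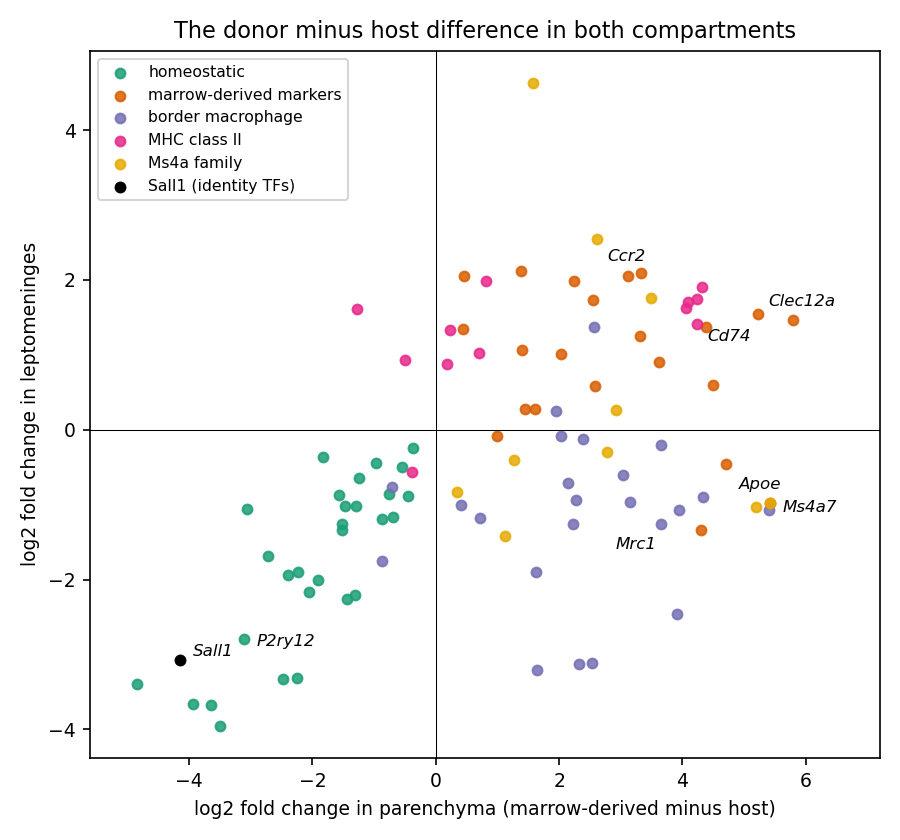
Log2 difference between donor-derived and host cells in the leptomeninges (vertical) against the parenchyma (horizontal) for members of 5 gene lists and Sall1. Homeostatic genes lie at lower left, below 0 in both compartments, MHC class II genes mostly at upper right, and Apoe, Ms4a7 and Mrc1 at lower right, with opposite directions.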

How the data were processed

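Raw UMI counts per gene, a deposited table of MARS-seq libraries with genes in rows, were used for every result. The submitters' processing notes name mm10 as the build. Aligner and counting rules: not given in the sources used here. No source ties a library to an animal. The deposited table also holds a normalized signal per library, which equalled counts divided by median-of-ratios size factors within 0.001 in all 28 libraries. It further holds regularised log2 values made by the authors, per the file headers, whose rank correlation with the counts was at least 0.9716 in every library. Both served only as checks.

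edgeR 4.0.16 in R 4.3.3 fitted 1 mean per group to all 28 libraries (8 groups, 20 residual degrees of freedom) with TMM scaling, a robust quasi-likelihood fit and edgeR's filter on low counts. Every gene of the deposited table already had at least 6 UMIs in its best library. Benjamini-Hochberg adjustment ran over the 12327 genes tested, at 0.05. A gene at 0 UMIs in a group was set to 3 UMIs over the group for a lower bound, a limit that covers counting error only. On simulated counts of 11345 genes for the marrow-derived against host comparison, 95% of 100 genes changed by 1 on the log2 scale and 98% of 100 changed by 2 were recovered, with 11 false calls among 11145 unchanged genes. The changed genes all averaged at least 10 CPM, as many rose as fell, and all other genes had equal means on both sides. In the data 60.4% of genes passed. These rates therefore do not show how the test behaves with so many genes changed, or for genes of low level. Shares of UMIs are sums over a marker list divided by the library total.

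Named genes were, in each direction, the 15 largest differences that passed, averaged 10 CPM or more and had libraries that did not overlap, then from every list the 4 or fewer genes of lowest adjusted p (3 or fewer for lists of other cells), 14 fixed genes and the genes that differed between genotypes. Not every gene so chosen is printed. Other members named beside a list were picked after their values were seen. The groups, members and gene lists were chosen with earlier results of these data known. Alternatives were median-of-ratios scaling, library totals, no filter, DESeq2 1.42.0, voom in limma 3.58.1, thinned UMIs, the 16 microglia libraries alone, replicate number as a block, a tested 2-fold threshold and leaving out libraries. Library totals and the 10 CPM rule in donor leptomeningeal cells were added after seeing the data. Promoter sequences come from RefSeq (GRCm38.p6), whose starts can differ from those of the gene coordinates given.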

Additional observations from a re-analysis of the deposited data

Results flagged for a closer look

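In groups of 8 libraries, 268 sets of values of genes and marker lists were screened for 1 library far from the other 7 by Dixon's criterion, and 18 had one; chance alone gives about 1 in 20. Mutant host library 4 stood apart most often: it was low for P2ry12 (1907 CPM, median of the 8 host libraries 3846), Cx3cr1 (487.9 CPM, median 1307) and Csf2ra (143.5 CPM, median 193.3), and high for Ifngr1 (793.2 CPM, median 540.4), Sgk1 (577.6 CPM, median 474.2) and the neutrophil list (0.1548% of UMIs, median 0.0865%). Control marrow-derived library 1 was high for Sall3 (20.87 CPM, median 6.159) and Ms4a14 (106.5 CPM, median 45.53). Control marrow-derived library 4 had Ube2c at 71.09 CPM (median 18.33). Mutant marrow-derived library 3 was low for P2ry12 (230.5 CPM, median 399.6) and high for Il6st (58.62 CPM, median 42.09) and Sesn2 (39.74 CPM, median 17.55), and mutant marrow-derived library 4 was high for Slfn5 (47.19 CPM, median 24.8). Among host libraries, control library 4 was high for Mt3 (2.066 CPM, median 0.2009), control library 2 for Mymk (105 CPM, median 83.15), control library 3 for Cd180 (895.5 CPM, median 686.6) and mutant library 1 for Bst2 (481.4 CPM, median 411.1), and mutant library 2 was low for Acvrl1 (43.05 CPM, median 52.86).

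The origin difference itself differed between groups for many of the genes described, and 6 are listed here. They are the fixed genes that passed with opposite directions in parenchyma and leptomeninges, and the genes that differed between genotypes. Among all named genes, 23 passed with opposite directions in parenchyma and leptomeninges. Clec12a and Cdkn1a also differed between compartments, without a change of direction. Between parenchyma and leptomeninges it differed by 5.175 on the log2 scale for Apoe (edgeR adjusted p = 1.76e-26) and by 6.411 for Ms4a7 (edgeR adjusted p = 5.51e-21). Between mutant and control chimeras it differed by 2.656 for Spint1 (edgeR adjusted p = 6.9e-07), 1.64 for Commd10 (edgeR adjusted p = 0.00373), -0.9779 for Gatm (edgeR adjusted p = 0.0126) and -0.8913 for Apobec3 (edgeR adjusted p = 0.0191).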

How the results depend on the processing

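With UMIs thinned to the smallest library total, which leaves fewer UMIs, the averaged comparison had 2634 genes higher and 2200 lower (1641 at least 2-fold higher), control chimeras 2072 and 1553, mutant chimeras 2119 and 1663, the difference between compartments 1757 and 1158, and the difference between genotypes 1 higher and 0 lower by edgeR's test. The latter was 4 and 10 with DESeq2, and the cause was not tested. A tested 2-fold threshold left 536 genes lower. With the adjustment run over only the genes of at least 10 CPM in donor leptomeningeal cells, 2268 were higher, 1150 of them and 495 lower genes at least 2-fold.

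Without each library in turn, the averaged comparison had 3691 to 4046 genes higher and 3282 to 3668 lower (2564 to 2801 and 933 to 1112 at least 2-fold), control chimeras 2763 to 3379 and 2150 to 2727, mutant chimeras 3176 to 3481 and 2541 to 3010, and the compartment difference 2244 to 3000 and 2113 to 2540. For the genotype difference the ranges were 2 to 70 and 0 to 5 by edgeR's test, the 70 without control marrow-derived library 2. Commd10, which had no averaged difference that passed (0.20, adjusted p = 0.234), was at -0.01255 (adjusted p = 0.97) without control marrow-derived library 1 and mutant marrow-derived library 4. Counts for small lists also moved: 8 T and NK cell genes were higher with thinned UMIs, with the 16 microglia libraries alone, or without control marrow-derived libraries 3 and 4.

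Replicate numbers showed no pairing of the libraries. Same-numbered marrow-derived and host libraries had correlations of their deviations of -0.117 to 0.0182. A library correlated best with its own number in 1 of 8 cases. With 4 libraries per group, these values cannot show that same-numbered libraries came from different animals. With the replicate number as a block, the averaged comparison had 3167 genes higher and 2587 lower (1904 and 736 at least 2-fold), control chimeras 2525 and 1777, mutant chimeras 2749 and 2031, the genotype difference 2 and 2 but not the same 4 genes, and the compartment difference 2700 and 2121. Under the block the averaged difference of Cx3cr1 (adjusted p = 0.211) and the genotype difference of Apobec3 (adjusted p = 0.101, and 0.127 with the 16 libraries alone) no longer passed, and 5 cholesterol synthesis genes were higher in place of 10. The lower depth of marrow-derived libraries limits what can be said of genes under about 10 CPM on that side.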

Other observations

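Y-linked transcripts were present on both sides. Ddx3y was at 46.9 to 82 CPM (median 61.4) in the 8 marrow-derived and 11.6 to 53 CPM (median 35.2) in the 8 host libraries, with overlapping ranges (0.94 ± 0.20, adjusted p = 0.000292 by edgeR). Eif2s3y was at 12.8 to 27.7 CPM (median 21.1) and 13.4 to 35.1 CPM (median 31.6) (-0.32 ± 0.18, adjusted p = 0.127 by edgeR). Mutant host library 4, the library with the lowest P2ry12 and Cx3cr1 of the host side, was also the lowest host library for both of these genes.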
